A study of Homo sapiens with 8 samples.

Results

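The genes described here encode the proteins of the mitochondrial ribosome, in HAP1 cells labelled as BCDIN3D knockout and in wild-type HAP1 cells. They were taken as every symbol made of MRPL or MRPS, a number and at most 1 of the letters A, B or C. This gave 77 of the 57996 symbols in the RNA-seq tables, 48 of the large subunit (MRPL) and 29 of the small subunit (MRPS). All 77 passed the filter on low counts, so the 77 tested genes are all the members and not a subset, among 16233 tested genes in all.

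HAP1 is a near-haploid human line derived from a chronic myelogenous leukaemia. The knockout group was a single clone, clone 11, labelled as a knockout of BCDIN3D, which encodes a methyltransferase acting on the end of histidine tRNA, and the other group was labelled wild-type. Cells of both groups grew for 48 h in IMDM with 10% serum, and total RNA was sequenced in stranded libraries, 2 per group. Replicates 1 and 2 of each group carry different dates in their labels, shared between the groups. Whether they came from separately thawed cultures is not given, and the spread that the p-values rest on may therefore be technical. With 1 clone, a difference between clones and an effect of the targeted gene cannot be told apart.

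The mitochondrial ribosome reads the few messenger RNAs that mitochondrial DNA encodes, all of them for subunits of the respiratory chain and ATP synthase. Its rRNAs come from mitochondrial DNA, but all of its proteins are encoded in the nucleus, made in the cytosol and imported. Some of them descend from bacterial ribosomal proteins, and others occur only in mitochondria. Loss of single proteins is known to cause combined defects of oxidative phosphorylation in people.

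Total counts per library were 21416336 and 20065041 in knockout and 20728819 and 24415272 in wild-type. BCDIN3D stood at 1.56 and 2.71 CPM (counts scaled by TMM to a common library total) in knockout, against 7.40 and 4.90 CPM in wild-type (log2 fold change -1.52 ± 0.24 SE, edgeR adjusted p = 2.06e-05). As to the labelled origin, 9 of 11 blood cell markers were too low to be tested in either group, among them PTPRC and SPI1. The other 2 were called in opposite directions: TAL1 had 60.0 and 59.7 CPM in knockout, against 45.8 and 49.9 CPM in wild-type (adjusted p = 0.00564), and KIT had 0.804 and 1.41 CPM in knockout, against 10.8 and 11.0 CPM in wild-type (log2 fold change -3.30, adjusted p = 2.61e-16). BCR and ABL1, the fusion partners of that leukaemia, were counted in every library. Of 7 mesenchymal markers 6 were tested. VIM (0.28, adjusted p = 0.000847) and SPARC (0.32, adjusted p = 0.00237) were called higher in knockout and 0 were called lower. Of the 6 tested markers 2 had negative values, the lowest a log2 fold change of -1.65. For 1 of these 2 the unadjusted edgeR p was under 0.05. COL1A2 had at most 3 counts in a library and THY1 was under 1 CPM throughout. All tests below compare knockout with wild-type over all tested genes, with a threshold of 0.05 on the Benjamini-Hochberg adjusted p of edgeR's quasi-likelihood test.

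No mitochondrial ribosomal protein gene passed the threshold. Of the 77 genes 0 were called higher and 0 lower, beside 6.56% of all tested genes called in either direction, 3.06% higher and 3.5% lower. Before adjustment, 9 of the 77 genes (11.7%) had a p under 0.05, each of them lower in knockout. Of all 16233 tested genes 1349 (8.31%) had such a p and were lower, and 1362 (8.39%) had one and were higher. DESeq2 called 0 members as well, beside 3.61% of all tested genes, 1.57% higher and 2.04% lower. With the label date as a block, 4 genes (5.19%) were called lower and 0 higher, beside 9.55% of all tested genes called in that fit, 4.83% lower and 4.72% higher. These 4 are described further on.

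The changes were small as well as uncalled. Fitted log2 fold changes ran from -0.26 for MRPL1 to 0.17 for MRPL53, and the interquartile range of the 77 genes was -0.089 to 0.011. Across all tested genes it was -0.12 to 0.11. The 95% interval of the fold change, not adjusted for the number of genes, lay within 1.5-fold in either direction for 75 of the 77 genes and within 1.2-fold for 53. Over all tested genes, many of them with fewer counts, 65.9% had an interval within 1.5-fold. The exceptions at 1.5-fold were MRPL53 and MRPS24, which had the fewest counts of the 77.

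**Figure D1:**
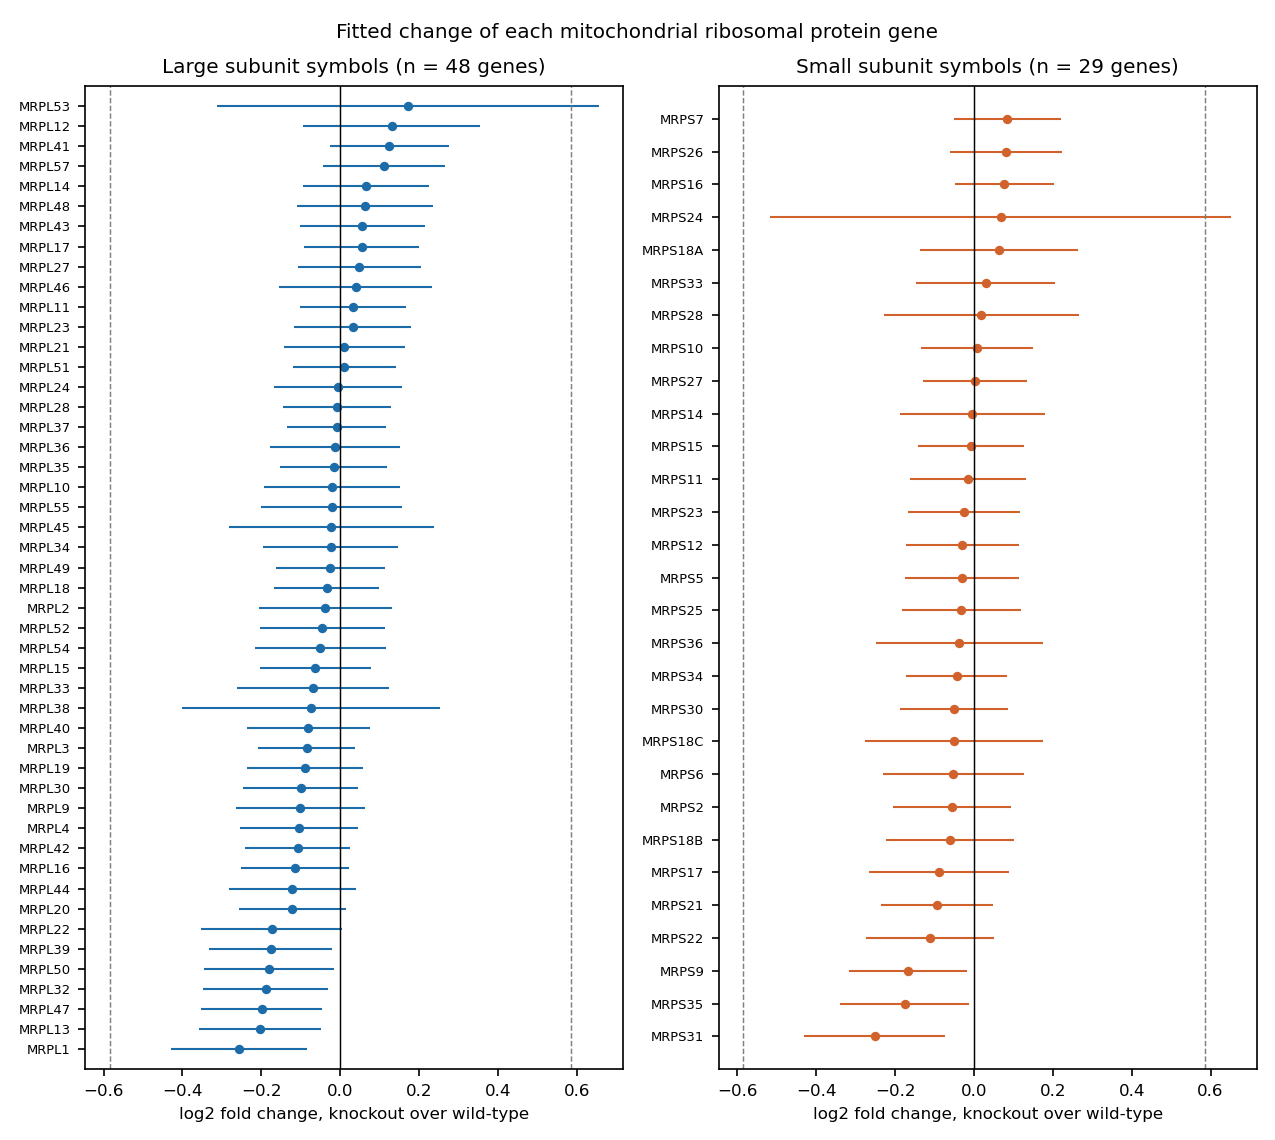
Fitted log2 fold change (knockout over wild-type, x axis) of each of the 77 genes, large subunit symbols on the left and small subunit symbols on the right, with horizontal bars for the 95% interval and dashed lines at 1.5-fold. MRPL53 and MRPS24 are the genes whose bars cross a dashed line, and 75 of 77 bars stay inside.

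Most values lay slightly below 0. The fitted change was negative for 54 of the 77 genes (70.1%), beside 49.6% of all tested genes, and the median was -0.031, beside 0.0017 over all tested genes. Both knockout libraries were below both wild-type libraries for 22 genes (28.6%), beside 21.8% of all tested genes, and both were above for 8 (10.4%), beside 23.5%. The summed level of the 77 genes was 5430 and 5352 CPM in knockout, against 5589 and 5498 CPM in wild-type. The groups did not overlap, but the means of 5391 ± 55.1 and 5543 ± 64.2 CPM (SD, n = 2 each) differed by -2.75% in knockout. Summed CPM of all tested genes differed by 1.87%, since TMM does not set equal sums. As a share of all counts, the 77 genes made up 0.536% and 0.531% in knockout, against 0.561% and 0.556% in wild-type. In such bulk RNA, fewer cells with a transcript and less of it per cell cannot be told apart.

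The size of this lean depended on the scaling and on single libraries. Scaling by library size alone moved the median of all tested genes to -0.025 and that of the members to -0.058, while the gap between them stayed at -0.033. Without knockout replicate 1 the members' median was -0.019 and 46 of 77 were negative.

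The subunits had similar medians, and whether they differ was not tested. Of the 48 large subunit genes 34 were negative, with a median of -0.029, and of the 29 small subunit genes 20 were negative, with a median of -0.031. Summed large subunit genes gave 3365 and 3309 CPM in knockout, against 3473 and 3425 CPM in wild-type. Small subunit genes summed to 2065 and 2043 CPM in knockout, against 2116 and 2073 CPM in wild-type. The ratio of large to small subunit counts was 1.63 and 1.62 in the knockout libraries, against 1.64 and 1.65 in the wild-type libraries. The ratios did not overlap, and all 4 lay between 1.62 and 1.65. The summed change was -3.25% for the large and -1.92% for the small subunit. Without knockout replicate 1 the medians were -0.025 and -0.0069.

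**Figure D2:**
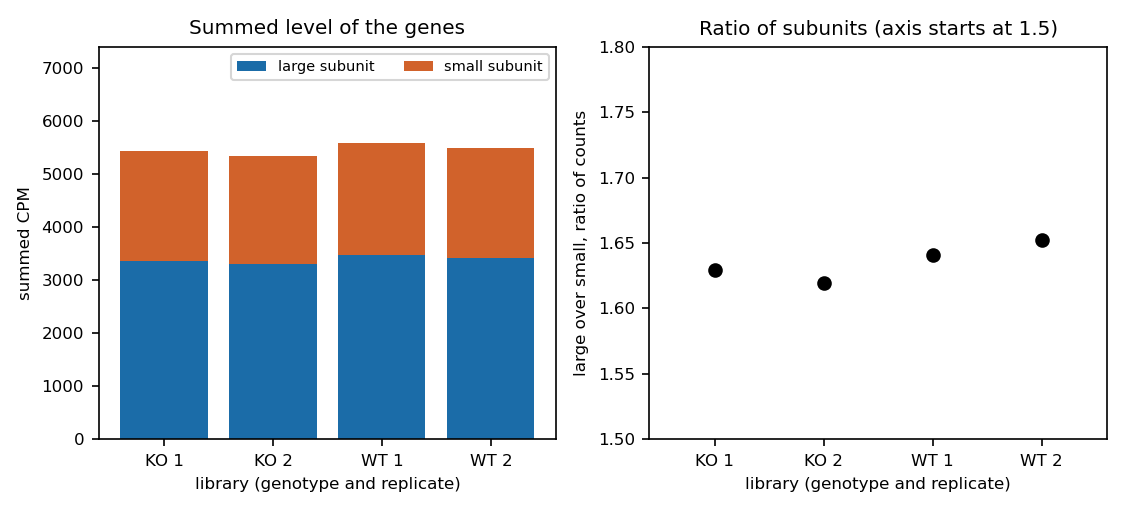
Left, summed CPM of large and small subunit genes in each of the 4 libraries (stacked bars from 0); right, ratio of large to small subunit counts per library on an axis that starts at 1.5. The knockout ratios of 1.63 and 1.62 lie just below the wild-type ratios of 1.64 and 1.65.

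A symbol does not always give the place of a protein. MRPS30 and MRPS18A sit in the large subunit of the assembled human ribosome, and the MRPS36 product, named KGD4 in RefSeq, has been assigned to the oxoglutarate dehydrogenase complex. Grouped by place, 50 genes of the large subunit had a median of -0.029 and 26 of the small subunit a median of -0.030. MRPS30 had 101 and 97.9 CPM in knockout, against 105 and 102 CPM in wild-type, a log2 fold change of -0.050 ± 0.068. MRPS18A gave 0.065 ± 0.100 and MRPS36 gave -0.037 ± 0.106, with adjusted p-values of 0.839 and 0.928. The paralogs of MRPS18A, MRPS18B (-0.061 ± 0.080) and MRPS18C (-0.051 ± 0.112), also missed the threshold.

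Proteins with a bacterial counterpart and those found only in mitochondria were described separately. The 48 genes with a bacterial counterpart had a median of -0.030, with 35 negative, and the 28 mitochondria-specific genes a median of -0.029, with 18 negative. In the large subunit the 31 genes of the first kind summed to 2240 and 2205 CPM in knockout, against 2324 and 2295 CPM in wild-type. The 19 genes of the second kind summed to 1253 and 1228 CPM in knockout, against 1279 and 1256 CPM in wild-type. In the small subunit the corresponding medians were -0.030 over 17 genes and -0.032 over 9 genes.

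Among large subunit genes, MRPL1 was lowest. It encodes the protein of the mobile stalk at the tRNA exit site (chromosome 4, 77862830 to 77952785). MRPL1 stood at 37.2 and 40.1 CPM in knockout, against 47.0 and 45.3 CPM in wild-type. Both knockout libraries were below both wild-type libraries. Its log2 fold change of -0.26 ± 0.086 (95% interval -0.43 to -0.085) missed the threshold with an adjusted p of 0.0622. It passed with the date as a block (blocked adjusted p = 0.0218) and with scaling by library size alone (adjusted p = 0.0354). Over all settings tried its adjusted p ran from 0.0218 to 0.385 and its log2 fold change from -0.31 to -0.20.

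MRPL13, which encodes a conserved protein of the large subunit, had 59.8 and 58.6 CPM in knockout, against 70.3 and 66.1 CPM in wild-type. The groups did not overlap. The log2 fold change was -0.20 ± 0.077 (adjusted p = 0.122, blocked adjusted p = 0.0395). MRPL47, a protein near the exit of the peptide tunnel, had 62.2 and 66.3 CPM in knockout, against 76.9 and 70.7 CPM in wild-type (-0.20 ± 0.077, adjusted p = 0.128). Its groups did not overlap either, and it missed the threshold under every setting tried.

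The highest large subunit values belonged to MRPL53, MRPL12, MRPL41 and MRPL57. MRPL53, a mitochondria-specific protein gene, had only 74 and 57 counts in knockout, against 55 and 74 counts in wild-type, and its interval ran from -0.31 to 0.66. MRPL12 encodes the protein of the flexible stalk that binds translation factors, and has also been reported to bind the mitochondrial RNA polymerase. It had 21.7 and 19.5 CPM in knockout, against 19.7 and 17.9 CPM in wild-type, with groups that overlapped (0.13 ± 0.11, adjusted p = 0.651). MRPL41, mitochondria-specific, had 71.2 and 71.3 CPM in knockout, against 66.0 and 64.7 CPM in wild-type. Both of its knockout libraries were the higher ones, but 0.12 ± 0.075 missed the threshold (adjusted p = 0.443). MRPL57, also mitochondria-specific, gave 0.11 ± 0.077 (adjusted p = 0.532), again without overlap.

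Other large subunit genes had been listed for their roles. MRPL3, whose product reaches towards the catalytic centre, had 225 and 204 CPM in knockout, against 228 and 226 CPM in wild-type (-0.084 ± 0.061, adjusted p = 0.558). MRPL16, next to the tRNA sites, gave -0.12 ± 0.069 and MRPL4, which lines the peptide tunnel, -0.10 ± 0.074. MRPL44, a mitochondria-specific protein with a ribonuclease III-like fold, gave -0.12 ± 0.080. All these knockout values lay below both wild-type values, and none passed the threshold. MRPL11, at the base of the factor-binding stalk, had 117 and 112 CPM in knockout, against 115 and 109 CPM in wild-type, and its groups overlapped (0.032 ± 0.067).

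Among small subunit genes, MRPS31 stood lowest. It is a mitochondria-specific protein gene (chromosome 13, 40729128 to 40771190). Its level was 33.2 and 33.7 CPM in knockout, against 40.5 and 39.2 CPM in wild-type, with no overlap. The log2 fold change of -0.25 ± 0.089 (95% interval -0.43 to -0.072) missed the threshold at an adjusted p of 0.0868 and passed it with the block (blocked adjusted p = 0.0310). MRPS31 has processed or duplicated copies among the counted symbols. MRPS31P4 had 35 and 39 counts in knockout, against 42 and 72 counts in wild-type, a log2 fold change of -0.46. MRPS31P5 went the other way, with 25 and 32 counts in knockout, against 26 and 24 counts in wild-type (0.33). Neither copy was called. Reads shared with such copies may have been lost or split.

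MRPS35, mitochondria-specific and chosen after its values were seen, was the other small subunit gene called with the block (-0.18 ± 0.080, adjusted p = 0.249, blocked adjusted p = 0.0421). It had 95.2 and 79.1 CPM in knockout, against 105 and 91.9 CPM in wild-type. The groups overlapped, and both replicate 1 libraries were higher than their replicate 2 libraries. Its value rested on single libraries: without knockout replicate 1 it was -0.32 (adjusted p = 0.00373), and over all settings it ran from -0.32 to -0.048.

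**Figure D3:**
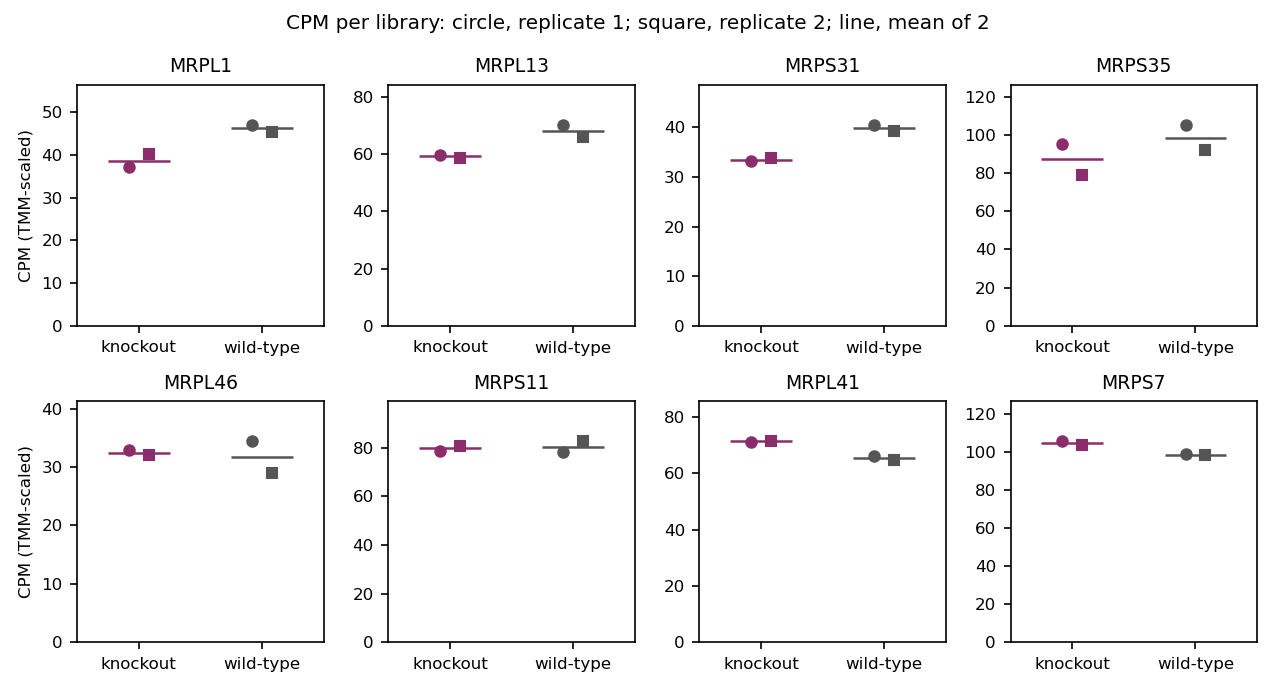
CPM (TMM-scaled, y axes from 0) of 8 genes in knockout libraries (left) and wild-type libraries (right); circles are replicate 1, squares replicate 2 and lines the mean of 2. The top row holds the 4 genes called lower with the date as a block, the bottom row the MRPL46 and MRPS11 pair and 2 genes whose knockout libraries were both higher, MRPL41 and MRPS7.

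At the upper end of the small subunit were MRPS7, MRPS26 and MRPS16. MRPS7, an early-binding protein of the subunit's head, had 106 and 103 CPM in knockout, against 98.6 and 98.2 CPM in wild-type. MRPS26, mitochondria-specific, had 96.0 and 94.6 CPM in knockout, against 93.1 and 87.0 CPM in wild-type. MRPS16, with a bacterial counterpart, had 157 and 155 CPM in knockout, against 150 and 145 CPM in wild-type. In all 3 genes both knockout libraries were the higher ones. MRPS7 at 0.085 ± 0.068 (adjusted p = 0.611), MRPS26 at 0.082 ± 0.070 (adjusted p = 0.650) and MRPS16 at 0.077 ± 0.063 (adjusted p = 0.621) missed the threshold. MRPS12, the protein of the decoding centre, gave -0.030 ± 0.071, MRPS2 gave -0.055 ± 0.075, and MRPS34, a mitochondria-specific protein linked to Leigh syndrome, gave -0.044 ± 0.064. MRPS22, another mitochondria-specific disease gene, had 52.4 and 49.6 CPM in knockout, against 57.0 and 53.2 CPM in wild-type (-0.11 ± 0.081, adjusted p = 0.561). Its groups did not overlap, while those of MRPS12, MRPS2 and MRPS34 did.

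Some values rest on few counts or on shared sequence. MRPS24 had 32 and 66 counts in knockout, against 49 and 55 counts in wild-type. RefSeq places it wholly inside a readthrough gene, URGCP-MRPS24, which had 0 counts in every library. MRPS28 likewise lies wholly inside another RefSeq gene, TPD52-MRPS28, which was not tested. Of 71 symbols for copies of these genes 44 had 0 counts in all 4 libraries, 4 were tested and 0 were called. The spans of 32 members overlap another RefSeq gene, and the strand setting of the counting is not given. Of 18 tested overlapping genes 3 were called (16.7%), beside 6.56% of all tested genes, all 3 named here after their values were seen. SLC5A3, a myo-inositol transporter gene on the strand of MRPS6, gave 0.33 (adjusted p = 0.000597), while MRPS6 gave -0.052 ± 0.089. ABHD8, on the strand opposite MRPL34, gave 0.43 (adjusted p = 0.0347), while MRPL34 gave -0.024 ± 0.085. HDGF, on the strand of MRPL24, gave -0.18 (adjusted p = 0.0449), while MRPL24 gave -0.0056 ± 0.080.

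The genes are scattered over 21 chromosomes. Chromosome 1 is named here after its values were seen. All 8 of its members had negative values, beside 70.1% of the 77 members and 49.6% of all tested genes. They ran from -0.12 for MRPL20 to -0.0039 for MRPS14. Their median was -0.016, beside -0.029 over the 1449 tested genes of that chromosome. Of the 8 members 5 had overlapping groups, beside 8882 of all 16233 tested genes.

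Many of the genes share a promoter region with a gene on the opposite strand. For 22 members the start of such a gene lay within 1000 bases upstream, and 18 of these partners were tested. None of the 18 was called, beside 6.56% of all tested genes. The large subunit gene MRPL46 and the small subunit gene MRPS11 are such a pair, with starts 320 bases apart on chromosome 15. Both are themselves counted among the 18 partners. MRPL46 had 32.9 and 32.0 CPM in knockout, against 34.4 and 28.9 CPM in wild-type (0.040 ± 0.096). MRPS11 had 78.5 and 80.9 CPM in knockout, against 78.2 and 82.7 CPM in wild-type (-0.015 ± 0.073). In both genes the groups overlapped. Other pairs were MRPL32 (-0.19 ± 0.079) with the proteasome gene PSMA2 (-0.071 ± 0.061), and MRPS12 with the mitochondrial seryl-tRNA synthetase gene SARS2 (-0.16 ± 0.17).

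Promoter windows from 250 bases before to 50 after the start, from RefSeq for GRCh38.p14, were matched for 69 of the 77 genes. They are shown for the MRPL46 and MRPS11 pair, whose windows share 181 bases, for the lowest gene of each subunit, MRPL1 and MRPS31, and for 1 gene of each subunit that holds both of the frequent motifs, MRPL52 and MRPS10. Capitals mark matches on either strand to CCGGAAG, a core bound by ETS factors such as GABP, to ATGGCGG, a core bound by YY1, or to GCATGCG, part of the site of NRF1. No marked motif overlaps another, and each window is read along the strand of its gene.
MRPL46 (chr15:88467339-88467638, minus strand): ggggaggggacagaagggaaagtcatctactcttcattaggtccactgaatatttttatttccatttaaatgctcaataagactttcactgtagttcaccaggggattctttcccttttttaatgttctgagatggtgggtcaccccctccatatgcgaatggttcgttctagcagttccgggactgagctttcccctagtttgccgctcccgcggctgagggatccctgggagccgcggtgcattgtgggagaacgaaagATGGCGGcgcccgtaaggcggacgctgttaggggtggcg
MRPS11 (chr15:88467458-88467757, plus strand): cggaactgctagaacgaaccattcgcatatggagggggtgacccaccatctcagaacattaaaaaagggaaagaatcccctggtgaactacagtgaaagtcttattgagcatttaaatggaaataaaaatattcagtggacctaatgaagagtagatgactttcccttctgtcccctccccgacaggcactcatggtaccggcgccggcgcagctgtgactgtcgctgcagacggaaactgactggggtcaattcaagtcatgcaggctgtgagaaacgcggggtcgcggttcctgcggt
MRPL1 (chr4:77862580-77862879, plus strand): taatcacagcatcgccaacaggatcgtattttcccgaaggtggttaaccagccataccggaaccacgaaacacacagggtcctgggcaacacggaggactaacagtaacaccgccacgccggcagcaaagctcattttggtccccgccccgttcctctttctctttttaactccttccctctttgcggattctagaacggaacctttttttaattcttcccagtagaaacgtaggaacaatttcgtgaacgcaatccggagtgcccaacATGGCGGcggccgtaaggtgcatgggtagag
MRPS31 (chr13:40771141-40771440, minus strand): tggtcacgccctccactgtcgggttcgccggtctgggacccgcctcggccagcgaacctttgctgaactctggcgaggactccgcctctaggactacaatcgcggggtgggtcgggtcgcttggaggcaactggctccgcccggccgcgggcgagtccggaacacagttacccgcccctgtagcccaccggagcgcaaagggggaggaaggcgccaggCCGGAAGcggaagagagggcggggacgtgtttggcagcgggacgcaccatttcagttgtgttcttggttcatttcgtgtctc
MRPL52 (chr14:22829637-22829936, plus strand): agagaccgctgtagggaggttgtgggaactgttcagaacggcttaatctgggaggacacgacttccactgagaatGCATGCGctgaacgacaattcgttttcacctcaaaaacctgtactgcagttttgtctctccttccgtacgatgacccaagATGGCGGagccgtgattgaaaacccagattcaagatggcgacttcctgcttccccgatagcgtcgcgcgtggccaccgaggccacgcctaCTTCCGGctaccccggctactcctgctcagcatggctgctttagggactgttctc
MRPS10 (chr6:42217812-42218111, minus strand): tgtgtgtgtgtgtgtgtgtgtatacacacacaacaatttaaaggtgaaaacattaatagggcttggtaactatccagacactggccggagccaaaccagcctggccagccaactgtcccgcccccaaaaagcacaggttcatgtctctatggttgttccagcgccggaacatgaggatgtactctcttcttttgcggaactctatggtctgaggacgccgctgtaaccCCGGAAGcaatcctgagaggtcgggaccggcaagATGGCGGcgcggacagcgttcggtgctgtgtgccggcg

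The letters CCGGAAG were in 28 of the 69 members' windows (40.6%), beside 10.7% of 27305 windows of all genes. ATGGCGG was in 23 (33.3%), beside 5.72%, and GCATGCG in 7 (10.1%), beside 4.13%. The 27305 windows were not limited to tested genes, while all the members were tested. Both CCGGAAG and ATGGCGG were in 6 of the members' windows. Of the printed ATGGCGG matches, those of MRPL46, MRPL1 and MRPS10 began after the start, at 11, 19 and 12. These letters open with ATG, as a coding sequence does, and whether the matches lie in coding sequence was not examined. That of MRPL52 began at -95. All of these motifs were chosen as known for mitochondrial genes, and each was searched on both strands. ATGGCGG and GCATGCG were shortened from longer forms after those had been searched in these same promoters. Their shares are therefore not independent of the choice of letters. In the large subunit 16 of 41 windows held CCGGAAG and in the small subunit 12 of 28. The median log2 fold change was -0.045 for members with CCGGAAG and -0.031 for those without, and -0.061 and -0.025 for ATGGCGG. A match describes letters and not a bound site. The genes for the factors missed the threshold too: NRF1 gave 0.13 ± 0.096, GABPA -0.082 ± 0.076 and YY1 -0.048 ± 0.062.

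The rest of the mitochondrial translation system was described from fixed lists. The list of mitoribosomal proteins named otherwise held genes such as the GTP-binding protein gene DAP3 and the release factor homologue ICT1. It also held OXA1L, which encodes a membrane insertase and not a ribosomal protein. This list gave 0 calls among 7 genes, with a median of 0.0029. Of 29 assembly and rRNA factors 0 were higher and 1 was lower (3.45%), beside 3.5% of all tested genes called lower. Their median was -0.0090, with 19 negative. The called gene was FASTKD2, an RNA-binding protein needed for assembly of the large subunit, with 0.0473 and 0.151 CPM in knockout, against 15.2 and 20.8 CPM in wild-type (-7.45 ± 0.33, adjusted p = 2.79e-22). The 28 other factors had fitted values no farther from 0 than the 0.25 of MPV17L2, another large subunit assembly gene (adjusted p = 0.146). Of 16 translation factors 0 were called, the elongation factor gene TUFM at -0.053 ± 0.056 among them. Their median was -0.012, with 9 negative, and their summed level differed by -3.33% in knockout. Of 14 genes for mitochondrial transcription and its nuclear regulators 13 were tested and 0 were called, with a median of -0.072 and 9 negative. The background for these counts is the 6.56% of all tested genes called in either direction.

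The counts of the RNA partners of these proteins varied more between replicates. How removal of rRNA or assignment of reads bears on these counts was not examined. The counts may therefore not give the levels of the rRNAs in the cells. The large rRNA MT-RNR2 averaged 89.9 ± 72.8 CPM in knockout and 71.8 ± 9.61 CPM in wild-type (SD, n = 2 each), a log2 fold change of 0.33 ± 0.86. The small rRNA MT-RNR1 had 43.1 and 17.9 CPM in knockout, against 37.5 and 17.0 CPM in wild-type (0.18 ± 0.79). For MT-RNR1 the libraries of the first label date were the higher ones in both groups, and within the dates knockout minus wild-type was 0.20 and 0.075 on the log2 scale. For MT-RNR2 the within-date differences were 0.84 and -0.75. Neither rRNA passed the threshold. The 13 mitochondrial mRNAs that the ribosome translates summed to 1322 and 1512 CPM in knockout, against 1525 and 1583 CPM in wild-type (-8.81%). Fitted values were negative for 8 of them and positive for 5. Of the 13, 0 were called higher and 1 was called lower (7.69%), beside 3.5% of all tested genes called lower. This was MT-CO3, a cytochrome oxidase subunit, with 507 and 544 CPM in knockout, against 585 and 616 CPM in wild-type (-0.19 ± 0.056, adjusted p = 0.0247). That call was lost with DESeq2 (adjusted p = 0.0608), without knockout replicate 1 (0.137), without wild-type replicate 1 (0.107) and without wild-type replicate 2 (0.469).

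Among the lists compared, assembly factors, translation factors, the transcription list and the mitochondrial mRNAs had medians below 0. Within the label dates, knockout minus wild-type on the log2 scale had medians of -0.043 and -0.048 for the members. For the mitochondrial mRNAs the signs differed, at -0.13 and 0.095. Assembly factors had -0.063 and -0.0074, translation factors -0.041 and -0.012, and the transcription list -0.047 and -0.11. The list of mitoribosomal proteins named otherwise lay near 0, with a median of 0.0029 and a summed difference of 1.08% in knockout. Of its 7 genes 5 were positive and 2 negative. AURKAIP1 gave 0.14 ± 0.065, and the other positive values were at most the 0.0057 of CHCHD1. Medians above 0 were also found for 2 larger lists. The 75 nuclear respiratory chain genes had a median of 0.045, with 51 positive, 2 called higher (2.67%) and 2 lower (2.67%), led by ATP5I (0.40 ± 0.074) and SDHC (-0.28 ± 0.076). The 83 tested cytosolic ribosomal protein genes had a median of 0.022, with 52 positive and 3 called higher (3.61%, beside 3.06% of all tested genes), RPS15 (0.25 ± 0.070) and RPL13 among them. Summed, the cytosolic genes gave 74054 and 74254 CPM in knockout, against 71120 and 72212 CPM in wild-type. With scaling by library size alone the cytosolic median turned to -0.0051. Whether the mitochondrial ribosomal list differs from these was not tested.

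**Figure D4:**
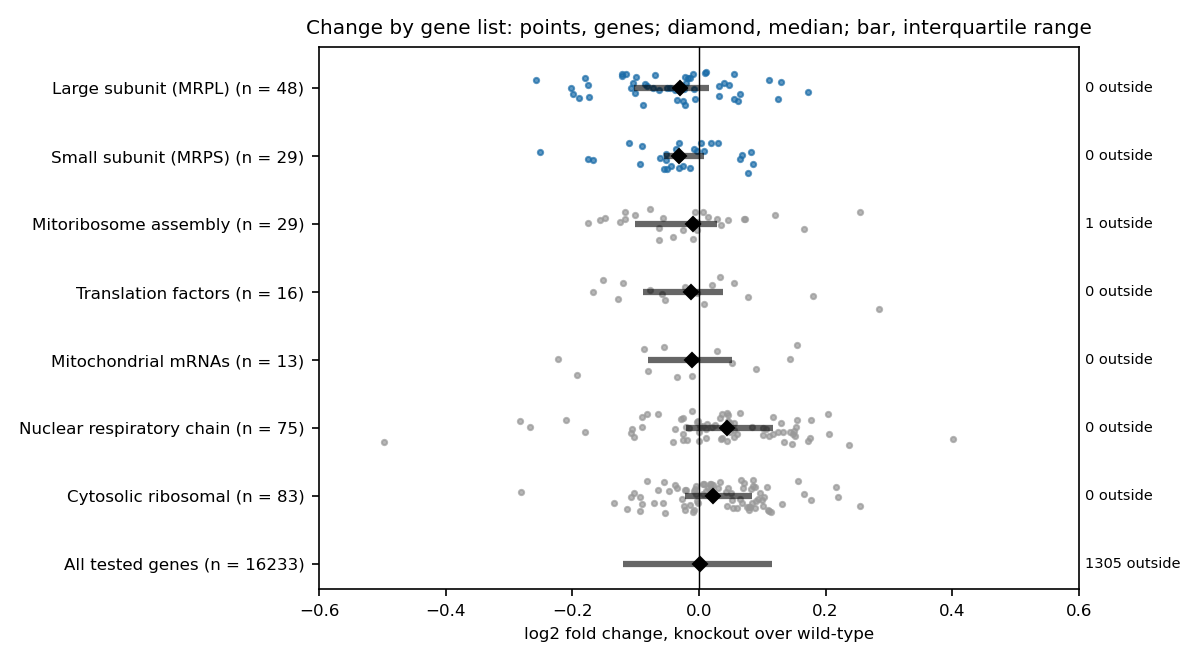
Log2 fold change (knockout over wild-type, x axis, cut at 0.6 in either direction) of single genes by list, with diamonds for medians and bars for the interquartile range; the number of genes beyond the axis stands at the right. Both subunits have medians of about -0.03 and assembly factors (-0.0090), translation factors (-0.012) and mitochondrial mRNAs (-0.010) lie just below 0, while the respiratory chain (0.045) and cytosolic ribosomal genes (0.022) lie above 0, and FASTKD2 is the 1 assembly gene outside.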

How the data were processed

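RNA-seq of 2 knockout and 2 wild-type libraries was used; the small RNA libraries were not used here. The authors deposited raw counts, whole reads per gene symbol. Per the submitters' processing notes, the tools were featureCounts, Subread, STAR, SAMtools, cutadapt and FastQC, on hg38. Their versions, the annotation and the strand setting were not stated there.

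Counts were tested in R 4.3.3 with edgeR 4.0.16 over all genes kept by filterByExpr (minimum count 10), with TMM scaling, a robust quasi-likelihood F test of knockout against wild-type and Benjamini-Hochberg adjustment. The SE is the log2 fold change divided by the square root of F, and the 95% interval uses its t quantile. The biological coefficient of variation was 5.53%. Lists are described by counts and medians, with no test. The procedure was also run on simulated data with a single dispersion and no date effect. The changes put in were larger than those fitted for the members, so that run does not bear on changes of the members' size. Alternatives were DESeq2 1.42.0, other scalings, no filter, leaving out each library and a block on the label date. That date is shared by 1 knockout and 1 wild-type library and is the source of the pairing. Across all tested genes the differences between the dates in the 2 groups correlated at only 0.082. Replicates differed by more than sampling noise (chi-square per degree of freedom 4.80 in knockout and 3.95 in wild-type). Levels are not compared between genes, since transcript lengths were not used here. The YY1 and NRF1 motifs were shortened to their cores after longer forms had been searched in the same promoters.

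The members and lists were chosen with earlier results of these data known. Named genes were BCDIN3D, FASTKD2, called members, the 4 highest and 4 lowest members, 17 members listed for their role, and up to 3 called genes each way of the other lists, of which 1 is not reported here. Other members were named after their values were seen. They were those called with the block, with few counts or with a called overlapping gene, MRPS26 and MRPS28. Those on chromosome 1 or with a printed promoter were also named in this way.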

Additional observations from a re-analysis of the deposited data

How the results depend on the processing

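With the replicate block 4 members were called lower, 2 of the large and 2 of the small subunit. With scaling by library size alone 1 member, of the large subunit, was called lower, and the medians were -0.058 over all members, -0.056 over the large and -0.058 over the small subunit. When each library was left out in turn, 0 to 1 members were called lower, 0 to 1 of the small and 0 of the large subunit, the 1 call being MRPS35 without knockout replicate 1. The medians then ran from -0.045 to -0.019 over all members, from -0.049 to -0.025 over the large and from -0.039 to -0.0069 over the small subunit. No member was called higher under any of these settings. With DESeq2, the other size factors (RLE), no filter and grouping by place in the ribosome, 0 members were called and the medians moved by less than the spread between replicates. The cause of these shifts was not tested. Fitted values kept their sign under all 9 alternatives that refit the counts for 43 of 77 members, 32 of them negative. With 2 libraries a group the median SE was 0.077, and for MRPS24 and MRPL53 the depth was too low to exclude a 1.5-fold change.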
